A study of Mus musculus with 12 samples.

Results

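Chemokine ligands are small secreted or membrane-tethered proteins that guide blood cells, and 38 of the 24062 gene symbols counted in this study carry the name of one. The members were all symbols made of Ccl or Cxcl and a number, with or without a trailing letter, plus Cx3cl1 and Xcl1. Cxcl12, the main chemokine of the marrow stroma, was left out by that choice and stands here only as a scale, and Pf4 and Ppbp are chemokines whose symbols the choice does not match. The rule reads only the symbols and uses no measured value.

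Chemokines bind receptors on the surface of leukocytes, and the spacing of their first cysteines gives the CC, CXC, CX3C and C classes their names. Many of them are kept low at rest and are switched on by inflammatory signals such as tumour necrosis factor, interleukin 1 and interferons, which act through NF-kB, IRF and STAT transcription factors. In the marrow, stromal chemokines hold stem and progenitor cells in place and set how many monocytes and neutrophils leave for the blood.

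RNA was measured in 12 libraries of bone marrow cells from C57BL/6J mice, 3 in each of 4 groups. GFPneg and GFPpos were sorted fresh from digested marrow as CD45-, Ter119- and CD31- cells, negative or positive for Scf-GFP, a reporter of the stem cell factor gene (Kitl in the files), and carried no transduced gene. The stroma of both cultured groups was grown from Scf-GFP+ cells in medium with serum and basic fibroblast growth factor. The control group then received a control vector, and rMSC, for revitalized mesenchymal stromal cells, received Klf7, Ostf1, Xbp1, Irf3 and Irf7 together, so the effect of a single factor cannot be read from these data. Nothing in the labels ties the replicates to different mice or dishes. The p-values therefore reflect how far these libraries vary, and that variation may be technical. No untransduced culture was among these libraries, so time in culture and the vector cannot be told apart in the control group.

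Each library held 60396342 to 85186405 counts after symbols turned into dates were removed, and levels are given as CPM, read counts scaled to a common library size after TMM adjustment. Libraries of a fresh group varied more than those of a culture, with a relative spread of 29.3% for GFPneg and 48.5% for GFPpos against 7% for control and 7.25% for rMSC. The tests share the spread of a gene over all groups, so that of the fresh libraries also enters rMSC against control. Low counts were mostly even, with 63.5 to 72.1% of the values from 1 to 20 being even, so these counts are less precise than as many independent reads. Markers of marrow stroma were present in GFPpos, where Lepr stood at 2406, 2364 and 3155 CPM and Kitl at 330.3, 292 and 479 CPM. GFPneg lacked them, with 1.97 to 45.4 CPM in the sum of 10 stromal markers, and instead held 6430 to 6592 CPM of 11 erythroid markers, so the stromal markers its source label calls for were all but absent. The control culture kept 28150 to 28530 CPM of the stromal markers but only 0.179 to 0.386 CPM of Lepr. The rMSC culture held 14140 to 14330 CPM of the stromal markers and 16.4 to 19.1 CPM of Lepr. GFPpos held some blood cell RNA as well, and its replicate 1 had the highest sum of 13 neutrophil markers (4277 CPM, against 1367 and 856 in replicates 2 and 3).

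Of the 38 members, 24 passed the filter on low counts and were tested. Another 9 had counts in at least 1 library but were too low (Ccl1, Ccl12, Ccl20, Ccl22, Ccl24, Cxcl3, Cxcl11, Cxcl17 and Xcl1), and 5 were at 0 in every library (Ccl21a, Ccl21b, Ccl21c, Ccl26 and Ccl27b). Ccl21a, Ccl21b and Ccl21c, and likewise Ccl27a and Ccl27b, are near-identical copies of each other, so reads that match several of them may have been dropped and their levels are uncertain. A mean of at least 5 CPM was reached by 15 members in some group, which was GFPpos for 11, control for 10, rMSC for 2 and GFPneg for 0, a gene being able to count in more than 1. The highest mean of these 15 was in GFPpos for 7 of them, in control for another 7 and in rMSC for 1. Since the filter keeps a gene that is high in a single group, the counts below describe the tested members and are not support for a general rise or fall.

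**Figure D1:**
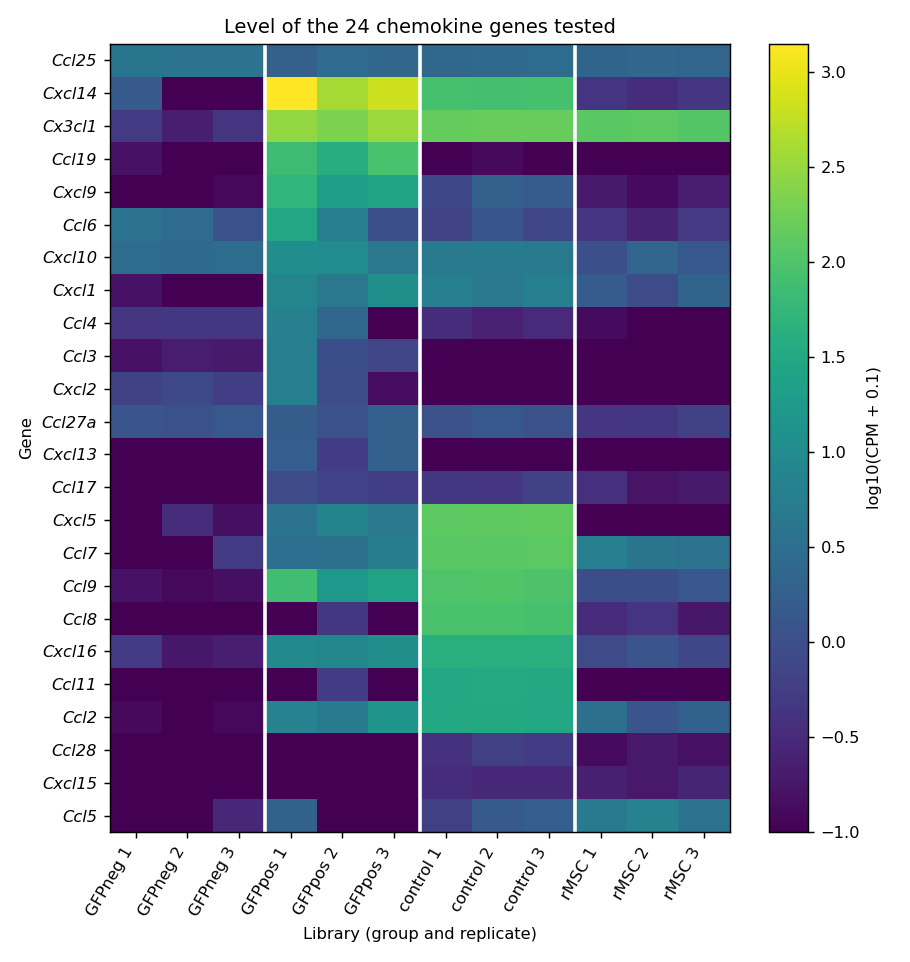
Level of the 24 tested chemokine genes (rows) in each of the 12 libraries (columns, in 4 groups of 3), as colour on a log10 scale of CPM plus 0.1. Cxcl14, Cx3cl1 and Ccl19 are brightest in GFPpos, a block from Cxcl5 to Ccl2 is brightest in control, and Cx3cl1 is the brightest row in rMSC.

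Summed over all 38 members, GFPneg held 14.95, 12.2 and 11.2 CPM and GFPpos held 1989, 719 and 1212 CPM. It was 794, 809.5 and 809 CPM in control, and 144, 146 and 126 CPM in rMSC. Every library of GFPneg and rMSC was below every library of GFPpos and control. Cxcl12 alone averaged 32700 ± 6750 CPM in GFPpos, while control held 5636 ± 118 and rMSC 1217 ± 15.1 (mean ± SD, n = 3), so it exceeded the 38 members together in every library of these groups. In bulk RNA, fewer cells of a type and less RNA per cell cannot be told apart.

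Freshly sorted Scf-GFP+ cells held far more chemokine RNA than Scf-GFP- cells, a comparison that asks what the reporter separates. Of the 24 tested members, 15 were higher in GFPpos at an adjusted p under 0.05 (edgeR quasi-likelihood test, Benjamini-Hochberg adjusted over 15163 genes), beside 40.5% of all genes tested, and 1, Ccl25, was lower, beside 36.5%. Their median log2 fold change was 5.61 by the fit, against 0.08 over all genes, and 4.70 over the 22 members with a fold once genes at 0 in a group were set at the bound that 3 counts per library allow. The 8 that were not called were Ccl4, Ccl5, Ccl8, Ccl11, Ccl27a, Ccl28, Cxcl2 and Cxcl15. Other scalings moved the median of all genes in this comparison from 0.08 to between 0.20 and 0.24, and all folds against GFPneg are to be read relative to that.

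Between the cultured control stroma and the fresh Scf-GFP+ cells, ligands differed in both directions, in shares near those of all genes. Set against GFPpos, 9 members (37.5% of those tested) were higher in control, beside 32.5% of all genes tested, and 9 (37.5%) were lower, beside 35.9%. The 9 that rose were Ccl2, Ccl7, Ccl8, Ccl9, Ccl11, Ccl28, Cxcl5, Cxcl15 and Cxcl16, and the 9 that fell were Ccl3, Ccl4, Ccl6, Ccl19, Cx3cl1, Cxcl2, Cxcl9, Cxcl13 and Cxcl14. Their median log2 fold change was -0.45 by the fit and with bounds alike, against -0.04 over all genes. The groups overlapped for Ccl4 and Ccl6. In the same comparison 12 of 13 neutrophil markers and 13 of 16 monocyte and macrophage markers were lower in control. So were 11 of 11 erythroid, 10 of 10 megakaryocyte and platelet, 4 of 6 dendritic cell and 7 of 11 endothelial markers, with 0 higher in each list. The same held for 4 of 7 B and plasma cell and 2 of 2 T and NK cell markers. Of 10 marrow stroma markers 7 were lower and 1 was higher. Of 2 tested basophil, mast cell and eosinophil markers 0 were lower and 1 was higher. The part of any of these cell types in the fall of Ccl3, Ccl4, Ccl6 and Cxcl2 was not tested.

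The 5 transduced genes went with lower chemokine RNA in the cultured stroma. In rMSC against control, 13 members were lower, beside 25.5% of all genes tested, and 0 were higher, beside 24.5%. At an unadjusted p under 0.05 the number of higher members was also 0, and DESeq2 gave 0. It became 1 (Ccl5) with the 2 groups fitted alone, and likewise without replicate 1 of both fresh groups. The 13 were Ccl2, Ccl7, Ccl8, Ccl9, Ccl11, Ccl27a, Ccl28, Cxcl1, Cxcl5, Cxcl9, Cxcl10, Cxcl14 and Cxcl16. Their median log2 fold change over the 24 was -2.27 by the fit and -3.30 over the 20 with a fold, against -0.01 over all genes. Ccl3, Cxcl2 and Cxcl13, at 0 in every cultured library, could not be called in either direction. The filter also keeps genes high in control alone, such as Ccl11, so these counts describe the tested members only.

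rMSC were also below the freshly sorted cells. Against GFPpos, 17 members were lower in rMSC, beside 38.2% of all genes tested, and 2, Ccl28 and Cxcl15, were higher, beside 33.4%. Ccl5, Ccl7, Ccl8, Ccl11 and Ccl25 did not pass the test. The median log2 fold change was -2.97 by the fit and -2.45 with bounds, against -0.08 over all genes. These last 3 comparisons share the libraries of GFPpos or control, so their folds are not independent of each other.

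**Figure D2:**
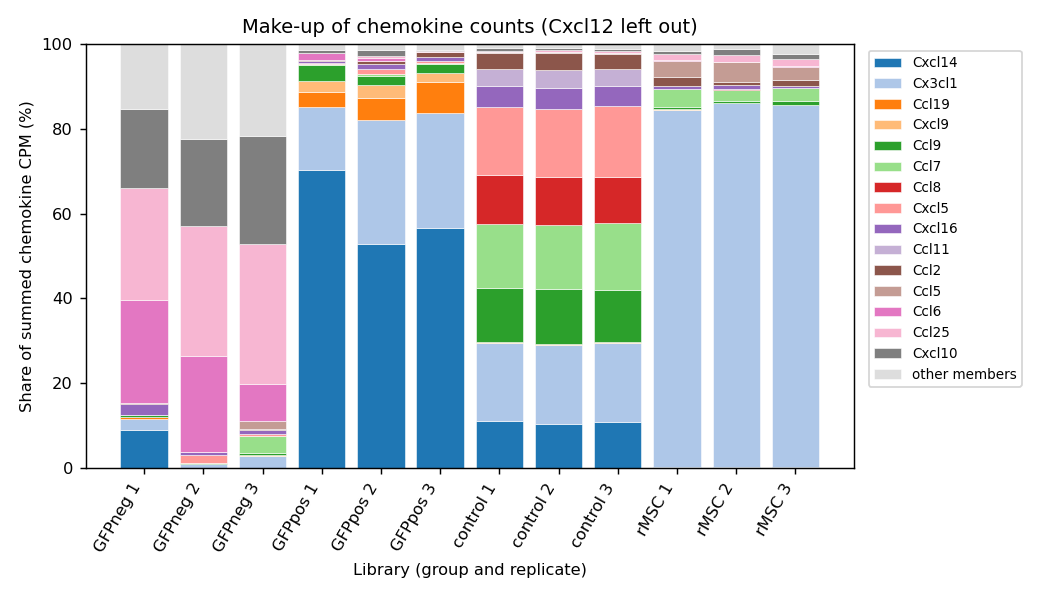
Share of each chemokine in the summed CPM of the 38 members (percent, bars by library). Cxcl14 makes up 52.7 to 70.3% in GFPpos, no single gene passes 18.6% on average in control, and Cx3cl1 makes up 84.3 to 85.8% in rMSC.

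Cx3cl1 encodes fractalkine, a chemokine held on the cell membrane by a mucin stalk and recognised by Cx3cr1 on monocytes. It stood at 0.413, 0.119 and 0.323 CPM in GFPneg, at 295, 211 and 328 in GFPpos, at 147, 150.5 and 151 in control and at 122, 126 and 107 in rMSC. The 4 groups did not overlap, and their order ran from GFPpos through control and rMSC to GFPneg. Cx3cl1 was 992-fold higher in GFPpos than in GFPneg (log2 fold change 9.95 ± 0.32, SE, adjusted p = 7.87e-10). It fell by 0.89 ± 0.20 on the log2 scale from GFPpos to control (adjusted p = 0.00245) and by 1.23 ± 0.20 from GFPpos to rMSC (adjusted p = 0.000259). Between rMSC and control the log2 difference was -0.34 ± 0.20 and did not pass (adjusted p = 0.188), although the 2 groups fitted alone gave an adjusted p of 3.99e-05, in a range of 3.99e-05 to 0.403 over the alternatives. Its mean in rMSC was 118 ± 9.62 CPM against 149.6 ± 1.95 in control. Its share of the summed chemokine CPM averaged 23.7% in GFPpos and 18.6% in control but 85.1% in rMSC.

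Cxcl14, a CXC chemokine of epithelia and stroma, was the most abundant member in fresh stroma. Its levels were 1398, 379 and 686 CPM in GFPpos, 87.0, 84.2 and 88.2 in control, 0.327, 0.250 and 0.353 in rMSC and 1.33, 0 and 0 in GFPneg. GFPpos stood above control, and control above rMSC, without overlap. The gene was higher in GFPpos than in GFPneg by 10.97 ± 1.14 on the log2 scale (adjusted p = 5.03e-06), a size that rests on the 1 GFPneg library with counts: it was 18.80 without GFPneg replicate 1, fitted against a group at 0, 10.35 and 10.36 without replicates 2 and 3, and 10.37 without GFPpos replicate 1. It was 9.50-fold lower in control than in GFPpos (adjusted p = 0.00334; 0.0592 with DESeq2, in a range of 9.11e-06 to 0.0592 over the alternatives) and fell by 2.62 on the log2 scale in place of 3.25 without GFPpos replicate 1. From control to rMSC it was 277-fold lower and fell by 8.11 ± 1.07 on the log2 scale (adjusted p = 0.0001). Against GFPpos, rMSC were 2628-fold lower (adjusted p = 6.44e-06), a log2 fold change of -11.36 that was -10.73 without GFPpos replicate 1.

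**Figure D3:**
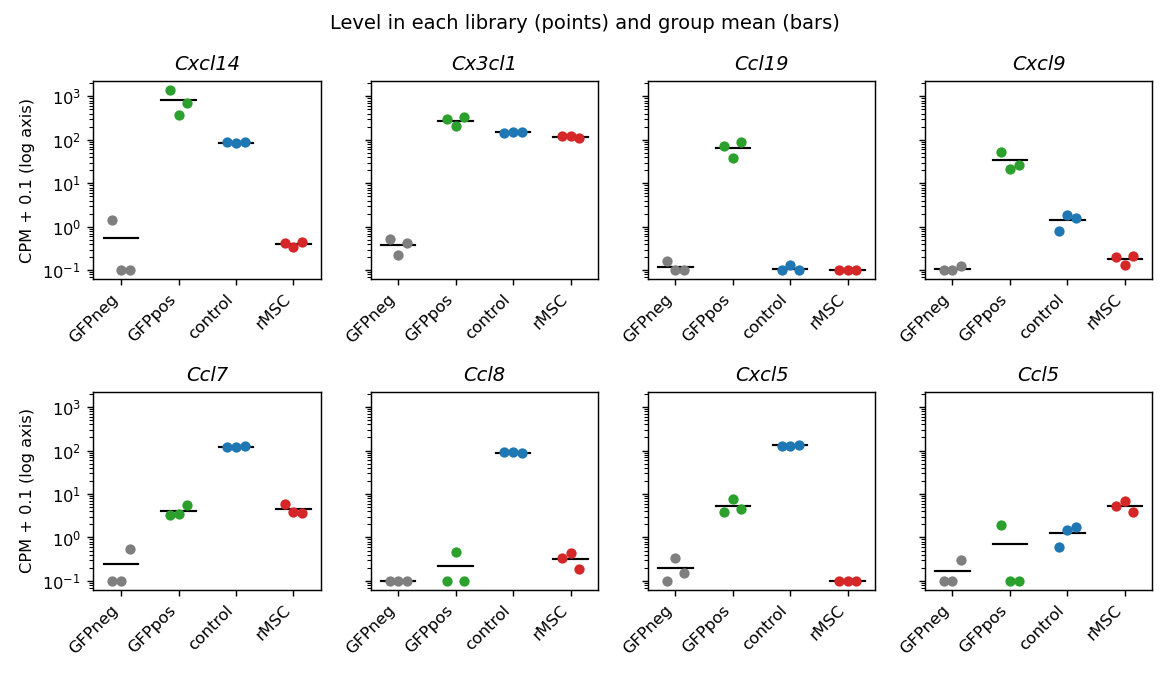
Level of 8 chemokine genes in each library (points, CPM plus 0.1 on a log axis) with the group mean (bar). Cxcl14, Ccl19 and Cxcl9 peak in GFPpos, Ccl7, Ccl8 and Cxcl5 peak in control, Ccl5 is highest in rMSC, and Cx3cl1 stays above 100 CPM in GFPpos, control and rMSC.

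Among the CC ligands of lymphoid homing, Ccl19 draws naive T cells and dendritic cells through Ccr7. It stood at 70.3, 37.5 and 89.0 CPM in GFPpos, and elsewhere had 4 counts in GFPneg replicate 1, 2 counts in control replicate 2 and 0 in the other 7 libraries. The gene was thus seen in fresh Scf-GFP+ cells and close to nowhere else. It was higher in GFPpos than in GFPneg by 11.74 ± 0.75 on the log2 scale (adjusted p = 7.87e-07; 15.15 without GFPneg replicate 1, fitted against a group at 0, and 11.15 without replicate 2). GFPpos exceeded control 7030-fold, with an exact 95% counting interval of 1946 to 58060 (adjusted p = 1.47e-06; 4536 without control replicate 1 and at least 1549 without control replicate 2), and rMSC were at least 1424-fold lower than GFPpos (adjusted p = 1.01e-06). Between rMSC and control no fold is given, since both were at or under the floor of 3 counts.

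Ccl25, which draws thymocytes and gut T cells through Ccr9, was the flattest member. GFPneg libraries held 3.72 to 3.96 CPM of it and GFPpos libraries 1.79 to 2.73, and the cultures lay at 2.31 to 2.83 (control) and 2.09 to 2.27 (rMSC). It was 1.70-fold lower in GFPpos than in GFPneg (log2 fold change -0.76 ± 0.23, adjusted p = 0.0116), and with those 2 groups fitted alone the log2 fold change was -0.53 (adjusted p = 0.16, in a range of 0.00188 to 0.16 over the alternatives). Its exons share 181 bp with those of Elavl1 on the opposite strand, a gene at 414.8 ± 24 CPM in GFPneg and 206 ± 25.2 in GFPpos, and without a known strand setting the reads of the 2 genes cannot be told apart. Ccl27a, a skin-homing chemokine, was 2.56-fold lower in rMSC than in control, at 0.423 ± 0.0977 against 1.09 ± 0.191 CPM (adjusted p = 0.0118), and 3.35-fold lower than in GFPpos (adjusted p = 0.00179). Ccl17, a ligand of Ccr4, was at 0.478 to 0.817 CPM in GFPpos and at 0 in GFPneg, at least 16.0-fold higher (adjusted p = 6.25e-05). It was 4.26-fold lower in rMSC than in GFPpos (adjusted p = 0.0191), and the call was lost without rMSC replicate 2 or 3 (adjusted p = 0.0703 and 0.0786, in a range of 0.00789 to 0.0786). Its log2 fold change there was -2.09, and -2.92 without rMSC replicate 1. Of the untested members here, Ccl22 had 4, 40 and 15 counts in GFPneg and 0 elsewhere, while Ccl1 and Ccl20 had 2 counts in 1 library each.

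The CC ligands of the monocyte chemoattractant family sit side by side on mouse chromosome 11. Ccl2, Ccl7, Ccl11, Ccl12 and Ccl8 lie in this order on the plus strand within 81.2 kb, chr11:82035571-82116799 in GRCm38, with Ccl11 better known as an attractant of eosinophils. Ccl7 stood at 0, 0 and 0.448 CPM in GFPneg, at 3.14, 3.32 and 5.47 in GFPpos, at 121, 122 and 128 in control and at 5.91, 3.83 and 3.60 in rMSC. The control libraries were all above every other library, and those of rMSC overlapped GFPpos. Ccl7 was 31.2-fold higher in control than in GFPpos (4.96 ± 0.58 on the log2 scale, adjusted p = 2.35e-05) and 27.8-fold lower in rMSC than in control (adjusted p = 5.37e-05). The difference between rMSC and GFPpos did not pass (0.16 ± 0.52 on the log2 scale, adjusted p = 0.793). GFPpos was above GFPneg by 4.67 ± 0.73 (adjusted p = 0.000129), by 4.06 without GFPneg replicate 2, and by 11.08 without GFPneg replicate 3, the GFPneg library that had Ccl7 counts.

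Ccl8, of the same family, was at 0 in GFPneg, had 20 counts in GFPpos replicate 2 and 0 in the other GFPpos libraries, stood at 90.5, 91.1 and 88.4 CPM in control and fell to 0.229, 0.344 and 0.0846 CPM in rMSC. Control was higher than GFPpos by 9.68 ± 0.86 on the log2 scale (adjusted p = 1.17e-05), a size that rests on the 1 GFPpos library with counts and was 8.95 without GFPpos replicate 1 and 15.63 without replicate 2, there against a group at 0. From control to rMSC the gene fell 414-fold (log2 fold change -8.69 ± 0.80, adjusted p = 2.76e-05). Neither GFPpos against GFPneg (adjusted p = 0.0687) nor rMSC against GFPpos passed (0.99 ± 1.06 on the log2 scale, adjusted p = 0.424). Both of these calls changed with single libraries, to adjusted p = 0.0233 without GFPpos replicate 1 in the first (range 0.00877 to 1) and 0.00351 without GFPpos replicate 2 in the second (range 0.00351 to 0.819).

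Ccl11 had 24 counts in GFPpos replicate 2, stood at 30.8, 33.9 and 31.2 CPM in control and was at 0 in all other libraries, GFPneg and rMSC included. Control was higher than GFPpos by 7.88 ± 1.2 on the log2 scale (adjusted p = 0.00102), again against 1 GFPpos library with counts, or by 7.20 without GFPpos replicate 1 and 14.14 without replicate 2. rMSC were at least 694-fold lower than control (adjusted p = 0.000832). Neither GFPpos against GFPneg (adjusted p = 0.0767, range 0.0293 to 1 over the alternatives) nor rMSC against GFPpos passed (adjusted p = 0.0944, range 0.0332 to 1), but both did without GFPpos replicate 1 (adjusted p = 0.0293 and 0.0378). Ccl12, between them on the chromosome, was untested, with 10 counts in all, in control.

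Ccl2, the main attractant of Ccr2+ monocytes, was already present in fresh stroma. It stood at 0.0295, 0 and 0.0249 CPM in GFPneg, at 6.83, 5.25 and 13.8 in GFPpos, at 31.3, 32.4 and 29.8 in control and at 3.33, 1.16 and 1.86 in rMSC. The 4 groups did not overlap. It was 3.61-fold higher in control than in GFPpos (1.85 ± 0.43 on the log2 scale, adjusted p = 0.00276) and 14.7-fold lower in rMSC than in control (adjusted p = 5.48e-05). rMSC were 4.08-fold lower than GFPpos (adjusted p = 0.00168), and GFPpos was higher than GFPneg by 8.82 ± 0.72 on the log2 scale (adjusted p = 7.76e-07), or by 8.23 without GFPneg replicate 2.

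**Figure D4:**
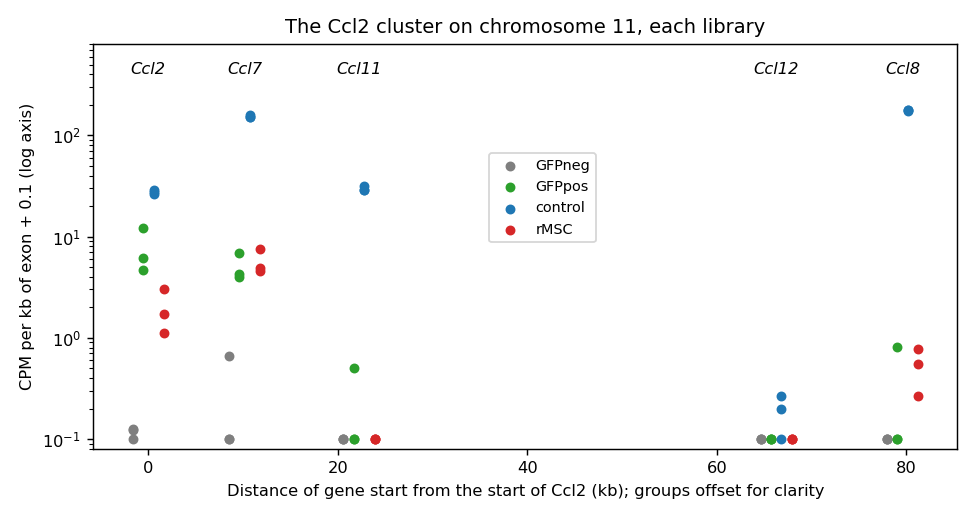
Level of the 5 genes of the Ccl2 cluster in each library (points, CPM per kb of exon plus 0.1 on a log axis) against the distance of the gene's start from that of Ccl2 in kb. Ccl2, Ccl7, Ccl11 and Ccl8 are highest in the 3 control libraries, while Ccl12, 66.3 kb from Ccl2, stays near 0 in all groups.

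Ccl9 and Ccl6 lie together elsewhere on chromosome 11 (chr11:83572919-83593087) and encode myeloid chemokines of the mouse that act through Ccr1. Ccl9 stood at 0.0591, 0.0239 and 0.0497 CPM in GFPneg, at 75.0, 16.2 and 24.7 in GFPpos, at 102, 106 and 98.8 in control and at 0.882, 0.891 and 1.21 in rMSC. The groups did not overlap, and GFPpos replicate 1 lay closest to control. It was higher in GFPpos than in GFPneg by 9.75 ± 0.76 on the log2 scale (adjusted p = 5.5e-07; 8.83 without GFPpos replicate 1) and 102-fold lower in rMSC than in control (log2 fold change -6.67 ± 0.57, adjusted p = 4.11e-06). rMSC were 38.7-fold lower than GFPpos (adjusted p = 6.31e-06), a log2 fold change of -5.27 that was -4.35 without GFPpos replicate 1. Control was 2.63-fold higher than GFPpos (log2 fold change 1.4 ± 0.43, adjusted p = 0.0146), by 2.32 without GFPpos replicate 1, and the call was lost with the 2 groups fitted alone (adjusted p = 0.0559, in a range of 2.76e-06 to 0.0559).

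Ccl6 went the other way in culture. It stood at 3.63, 2.76 and 0.995 CPM in GFPneg, at 30.7, 6.00 and 0.920 in GFPpos, at 0.613, 1.17 and 0.656 in control and at 0.359, 0.156 and 0.395 in rMSC. Replicate 1 of GFPpos was far above the others, and replicate 3 of GFPpos lay within the control libraries. Its log2 fold change in GFPpos against GFPneg was 2.35 ± 0.97 (adjusted p = 0.0449), and 0.49 without GFPpos replicate 1 (adjusted p = 0.583, in a range of 0.00369 to 0.583). That call held without GFPpos replicate 2 or 3 and was lost without any one of the other 10 libraries. Ccl6 fell by 3.95 ± 1.05 on the log2 scale from GFPpos to control (adjusted p = 0.00613), with a log2 fold change of -2.09 without that library. From GFPpos to rMSC it fell by 5.36 ± 1.13 (adjusted p = 0.00143), with -3.50 without that library. Between rMSC and control the log2 difference was -1.41 ± 1.02 and did not pass (adjusted p = 0.278; 0.0151 with the 2 groups alone, range 0.0151 to 0.505).

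GFPpos replicate 1 was also the highest library of its group for the tested members Ccl3, Ccl4, Ccl5, Ccl9, Ccl17, Cxcl2, Cxcl9, Cxcl10 and Cxcl14. It held the highest sums of neutrophil markers (above; 798 to 1444 CPM in GFPneg, 7.87 to 8.77 in control and 0.278 to 0.641 in rMSC) and of 16 monocyte and macrophage markers, at 2553 CPM against 1597 and 2016, although most of the latter is Vcam1, which stroma expresses too (1923, 1238 and 1777 CPM). The monocyte and macrophage sum was 115 to 183 CPM in GFPneg, 297 to 306 in control and 249.9 to 271 in rMSC, and 7 of its 16 genes were at 0 throughout control and 7 throughout rMSC. C1qb of macrophages was at 14.4, 7.53 and 1.66 CPM in the 3 GFPpos libraries and, like C1qa, C1qc and Emr1, at 0 in both cultures, and S100a8 of neutrophils was at 768, 315 and 183 CPM in GFPpos and at most 0.0653 in the cultures. None of the listed neutrophil or macrophage markers was at 0 throughout GFPpos. Replicate 1 also held the highest GFPpos sum of endothelial markers, at 273 CPM against 114 and 94.7. Its sum of dendritic cell markers was 158 CPM against 35.2 and 23.6. Erythroid, B and plasma cell, T and NK cell, and basophil, mast cell and eosinophil sums were highest there too. The megakaryocyte and platelet sum was lowest there. The part of any of these cells in the levels of these chemokines was not tested.

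Among the CXC ligands with the ELR motif, which draw neutrophils through Cxcr2, Cxcl5 was highest in the control culture. It stood at 0, 0.239 and 0.0497 CPM in GFPneg, at 3.67, 7.46 and 4.35 in GFPpos, at 128, 130.3 and 135 in control and at 0 in all 3 rMSC libraries. Control was above every other library and rMSC below every library of GFPpos. Cxcl5 was 25.5-fold higher in control than in GFPpos (log2 fold change 4.67 ± 0.43, adjusted p = 1.57e-05). In rMSC it was at least 2845-fold lower than in control (adjusted p = 1.59e-06) and at least 112-fold lower than in GFPpos (adjusted p = 1.34e-05). GFPpos was above GFPneg by 5.63 ± 0.58 on the log2 scale (adjusted p = 1.95e-05), or by 7.49 without GFPneg replicate 2.

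Cxcl1, another ligand of Cxcr2, changed less. It stood at 0.0591, 0 and 0 CPM in GFPneg, at 7.58, 4.34 and 11.5 in GFPpos, at 6.05, 4.42 and 6.00 in control and at 1.53, 0.813 and 2.09 in rMSC. Control overlapped GFPpos (-0.51 ± 0.58 on the log2 scale, adjusted p = 0.448), and rMSC lay below both. rMSC were 5.28-fold lower than GFPpos (adjusted p = 0.00451) and 3.71-fold lower than control (log2 fold change -1.89 ± 0.60, adjusted p = 0.0225). This last call was lost without control replicate 1 or 3 or without rMSC replicate 1 or 2 (adjusted p = 0.0685 to 0.0934, in a range of 2.42e-05 to 0.0934). GFPpos was higher than GFPneg by 8.65 ± 0.90 (adjusted p = 5.27e-06), or by 12.08 without GFPneg replicate 1 and 8.06 without replicate 2.

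Cxcl2, the close relative of Cxcl1 in the same gene cluster on chromosome 5, was a gene of fresh cells. It stood at 5.96, 0.857 and 0.0354 CPM in GFPpos, at 0.497 to 0.716 in GFPneg and at 0 in all 6 cultured libraries. GFPpos and GFPneg overlapped (1.96 ± 1.4 on the log2 scale, adjusted p = 0.239, range 0.0353 to 0.918; -0.40 without GFPpos replicate 1). Cxcl2 was at least 53.6-fold lower in control (adjusted p = 0.00775) and at least 49.6-fold lower in rMSC (adjusted p = 0.00756) than in GFPpos, where replicate 1 held 482 counts and replicates 2 and 3 held 47 and 2. Without that library these limits were 10.5-fold and 9.68-fold. Cxcl15, a lung chemokine, was near the floor, at 0.194 to 0.253 CPM in control, 0.0938 to 0.169 in rMSC and 0 in both fresh groups. It was at least 4.47-fold higher in control (adjusted p = 0.000724) and at least 2.72-fold higher in rMSC (adjusted p = 0.0012) than in GFPpos. Cxcl3 was untested, with 48 counts over 7 libraries.

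The promoters of Cxcl1 and Cxcl2 are shown because these neighbouring genes hold the letters of an NF-kB site at like distances, while Cxcl1 had counts in all cultured libraries and Cxcl2 in none. That of Ccl8 is shown because this gene of the control culture holds no such letters, while Ccl9, also highest there, holds them. They are the 250 bases before the RefSeq start on GRCm38.p6, 5' to 3' on the gene's strand, and capitals mark matches of GGNNNTTCC on either strand, a simplified kB motif. The Cxcl1 window is chr5:90890995-90891244 on the plus strand, with matches beginning 89 and 70 bases before the start. The Cxcl2 window is chr5:90903649-90903898 on the plus strand, with matches at 96 and 77 bases. The Ccl8 window is chr11:82114935-82115184 on the plus strand and holds no match to these letters or to those of the interferon element below.
Cxcl1: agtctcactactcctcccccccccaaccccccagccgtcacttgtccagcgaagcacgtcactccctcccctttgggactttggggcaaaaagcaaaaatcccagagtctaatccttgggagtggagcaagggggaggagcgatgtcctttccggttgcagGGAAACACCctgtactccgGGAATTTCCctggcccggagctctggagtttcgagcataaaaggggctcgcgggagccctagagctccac
Cxcl2: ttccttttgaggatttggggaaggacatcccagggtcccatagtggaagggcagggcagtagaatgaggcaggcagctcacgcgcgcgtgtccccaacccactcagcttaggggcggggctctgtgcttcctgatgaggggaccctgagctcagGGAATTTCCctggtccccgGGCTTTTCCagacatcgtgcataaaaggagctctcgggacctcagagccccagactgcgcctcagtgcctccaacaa
Ccl8: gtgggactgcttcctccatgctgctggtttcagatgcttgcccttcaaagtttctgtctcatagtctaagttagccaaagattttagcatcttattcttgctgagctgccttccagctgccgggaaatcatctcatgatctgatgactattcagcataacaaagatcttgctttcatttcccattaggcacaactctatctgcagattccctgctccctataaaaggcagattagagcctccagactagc
Of the 26 members with a RefSeq window, 12 held this motif, and 17.6% of all 27025 genes with a window held it. The window of Cxcl14 held none and that of Cx3cl1 held 1, 71 bases before its start. Of the members highest in control at 5 CPM or more, Ccl9 held 1, 35 bases before its start, and Ccl8 none. The tested members without a window, which could not be searched, were Ccl2, Ccl4, Ccl5, Ccl7, Ccl11, Cxcl5 and Cxcl16. A match is a description of the letters only, and no factor binding was measured.

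The interferon-inducible CXC ligands Cxcl9 and Cxcl10 draw activated T cells and NK cells through Cxcr3, and both were highest in fresh stroma. Cxcl9 stood at 53.8, 21.0 and 26.0 CPM in GFPpos, at 0.693, 1.75 and 1.46 in control, at 0.0980, 0.0313 and 0.113 in rMSC, and had 2 counts in GFPneg. The 4 groups did not overlap. GFPpos exceeded GFPneg 4205-fold, with an exact 95% counting interval of 1164 to 34730 (adjusted p = 2.49e-07; the fitted log2 fold change of 11.66 was 14.16 without GFPneg replicate 3). The ratio was 2728 without GFPpos replicate 1, 2686 without GFPneg replicate 2 and at least 839 without GFPneg replicate 3, the GFPneg library with counts. Cxcl9 was 25.8-fold lower in control than in GFPpos (log2 fold change -4.69 ± 0.52, adjusted p = 1.46e-05). It was 15.7-fold lower in rMSC than in control (log2 fold change -3.97 ± 0.62, adjusted p = 0.000347) and 404-fold lower than in GFPpos (adjusted p = 6.7e-07).

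Cxcl10 was spread more evenly. It stood at 2.78, 2.53 and 2.85 CPM in GFPneg, at 10.5, 9.73 and 4.28 in GFPpos, at 4.58, 4.98 and 4.67 in control and at 0.947, 2.13 and 1.27 in rMSC. GFPpos overlapped control, and rMSC were lowest. It was 3.01-fold higher in GFPpos than in GFPneg (adjusted p = 0.00211), 3.27-fold lower in rMSC than in control (log2 fold change -1.71 ± 0.37, adjusted p = 0.00289) and 5.65-fold lower in rMSC than in GFPpos (adjusted p = 0.000136). Control against GFPpos did not pass (-0.79 ± 0.36 on the log2 scale, adjusted p = 0.072), but did without GFPpos replicate 3 (adjusted p = 0.0067, range 0.0067 to 0.229). The exons of Cxcl10 share 133 bp with those of Art3 on the opposite strand, which itself was at 14.9 ± 1.2 CPM in control and 0.224 ± 0.111 in rMSC, and the share of reads from Art3 was not tested. Cxcl11, of the same family, had 1 count in all and is a polymorphic pseudogene in the gene annotation used.

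The promoters of Cxcl9 and Cxcl10 are shown because these known interferon targets were lower in the cells given Irf3 and Irf7. Both lie on the minus strand, at chr5:92328080-92328329 for Cxcl9 and chr5:92348890-92349139 for Cxcl10. Capitals mark matches of GAAANNGAA, a simplified interferon-stimulated response element, 175 bases before the start of Cxcl9 and 213 before that of Cxcl10, and of the kB letters above, at 130 and 42 bases for Cxcl9 and at 158 and 103 for Cxcl10.
Cxcl9: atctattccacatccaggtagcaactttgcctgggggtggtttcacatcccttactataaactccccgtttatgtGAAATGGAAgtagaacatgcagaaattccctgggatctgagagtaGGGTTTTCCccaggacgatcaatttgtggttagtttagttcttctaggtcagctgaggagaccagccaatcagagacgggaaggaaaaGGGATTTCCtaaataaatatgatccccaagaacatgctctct
Cxcl10: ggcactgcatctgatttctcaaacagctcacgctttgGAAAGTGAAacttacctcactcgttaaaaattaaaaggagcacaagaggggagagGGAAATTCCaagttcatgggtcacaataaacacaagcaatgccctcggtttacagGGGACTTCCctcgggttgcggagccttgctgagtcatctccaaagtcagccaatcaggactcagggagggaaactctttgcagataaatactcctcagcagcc
The response element letters stood in windows of 6 of the 26 members (Ccl1, Ccl3, Ccl19, Cxcl9, Cxcl10 and Cxcl14) and in 8.18% of all genes with a window, on either strand. Ccl5 and the other members without a window could not be searched for them.

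Ccl5 (RANTES), which draws T cells and monocytes, had its highest mean in rMSC, as did no other member that reached 5 CPM in a group. It stood at 0, 0 and 0.199 CPM in GFPneg, at 1.86, 0 and 0 in GFPpos, at 0.506, 1.41 and 1.61 in control and at 5.13, 6.79 and 3.72 in rMSC. All rMSC libraries were above all others, while GFPpos overlapped GFPneg and control. The log2 difference between rMSC and control was 2.15 ± 1.59 and did not pass (adjusted p = 0.291). With the 2 cultured groups fitted alone the adjusted p was 5.55e-05, and without replicate 1 of both fresh groups it was 0.0451, in a range of 5.55e-05 to 0.504 over the alternatives. rMSC against GFPpos gave 3.04 ± 1.65 (adjusted p = 0.12; 0.00131 without GFPpos replicate 1), GFPpos against GFPneg 3.19 ± 1.80 (adjusted p = 0.127; -5.25 without GFPpos replicate 1, with 0.0437 without GFPneg replicate 3) and control against GFPpos 0.90 ± 1.56 (adjusted p = 0.624; 0.00546 without GFPpos replicate 1).

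Ccl3 and Ccl4 are inflammatory chemokines of myeloid cells, and both had their highest mean in GFPpos. Ccl3 stood at 5.75, 0.875 and 0.637 CPM in GFPpos, at 0.0591 to 0.107 in GFPneg and at 0 in the 6 cultured libraries. It was 26.7-fold higher in GFPpos than in GFPneg (adjusted p = 0.00606; 3.06 in place of 4.74 on the log2 scale without GFPpos replicate 1), and at least 56.8-fold lower in control (adjusted p = 0.00116) and 52.6-fold lower in rMSC (adjusted p = 0.00111) than in GFPpos. Without GFPpos replicate 1, which held 465 of its counts beside 48 and 36, these limits were 17.7-fold and 16.4-fold. Ccl4 stood at 6.36, 2.39 and 0 CPM in GFPpos, at 0.354 to 0.373 in GFPneg, at 0.144 to 0.253 in control and at 0.0327, 0 and 0 in rMSC. Its GFPpos libraries overlapped every other group. Ccl4 was 14.3-fold lower in control than in GFPpos (adjusted p = 0.0331), a call lost without GFPpos replicate 1 or any single control library and with the 2 groups alone (adjusted p = 0.0734 to 0.128 in these, range 0.000275 to 0.141). GFPpos exceeded rMSC 329-fold, with an exact 95% counting interval of 90.7 to 2723 (adjusted p = 0.00291). The ratio was 115 without GFPpos replicate 1, 210.1 without rMSC replicate 3, and at least 65.4 without rMSC replicate 1, the rMSC library with counts. Ccl4 passed neither in GFPpos against GFPneg (adjusted p = 0.0658, range 0.000689 to 0.364) nor in rMSC against control (adjusted p = 0.0802, range 0.00292 to 0.200). Without GFPpos replicate 3, the library with no Ccl4 counts, both passed (adjusted p = 0.000689 and 0.00292).

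Cxcl16, a transmembrane chemokine that binds Cxcr6 and also takes up oxidised lipoprotein, moved with the culture set. It stood at 0.399, 0.0836 and 0.124 CPM in GFPneg, at 9.22, 7.98 and 11.2 in GFPpos, at 38.9, 40.3 and 39.2 in control and at 0.817, 1.13 and 0.663 in rMSC. The 4 groups did not overlap. It was 48.2-fold higher in GFPpos than in GFPneg (adjusted p = 5.96e-07; 6.50 in place of 5.59 on the log2 scale without GFPneg replicate 1) and 4.17-fold higher in control than in GFPpos (adjusted p = 0.000319). From control to rMSC it fell 45.5-fold (log2 fold change -5.51 ± 0.41, adjusted p = 1.61e-06), and rMSC were 10.9-fold lower than GFPpos (adjusted p = 1.14e-05). Its exons share 552 bp with those of Zmynd15 on the opposite strand, a gene at no more than 0.957 CPM on average in any group.

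Cxcl13, which draws B cells through Cxcr5, had counts in GFPpos only, at 1.63, 0.438 and 1.73 CPM. GFPpos was at least 32.4-fold higher than GFPneg (adjusted p = 0.00225), and control was at least 29.8-fold (adjusted p = 0.00296) and rMSC at least 27.5-fold lower than GFPpos (adjusted p = 0.00283). Ccl28, a mucosal chemokine that binds Ccr3 and Ccr10, was at 0 in both fresh groups, at 0.293, 0.518 and 0.418 CPM in control and at 0.0327, 0.0938 and 0.0564 in rMSC. It was at least 8.48-fold higher in control than in GFPpos (adjusted p = 0.000581) and at least 1.26-fold higher in rMSC than in GFPpos (adjusted p = 0.00534), a limit that could not be given without rMSC replicate 2. It was 6.54-fold lower in rMSC than in control (adjusted p = 0.0169), a call lost with DESeq2, with no filter, and without control replicate 2 or 3 or rMSC replicate 1 or 3 (adjusted p = 0.0526 to 0.0786, range 0.000993 to 0.0786). Of the untested members left, Ccl24 had 24 counts, all in control, and Xcl1 had 10 counts over 3 libraries. Cxcl17 had 60 counts over 8 libraries, with 10, 23 and 7 of them in rMSC, the group of its highest mean.

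**Figure D5:**
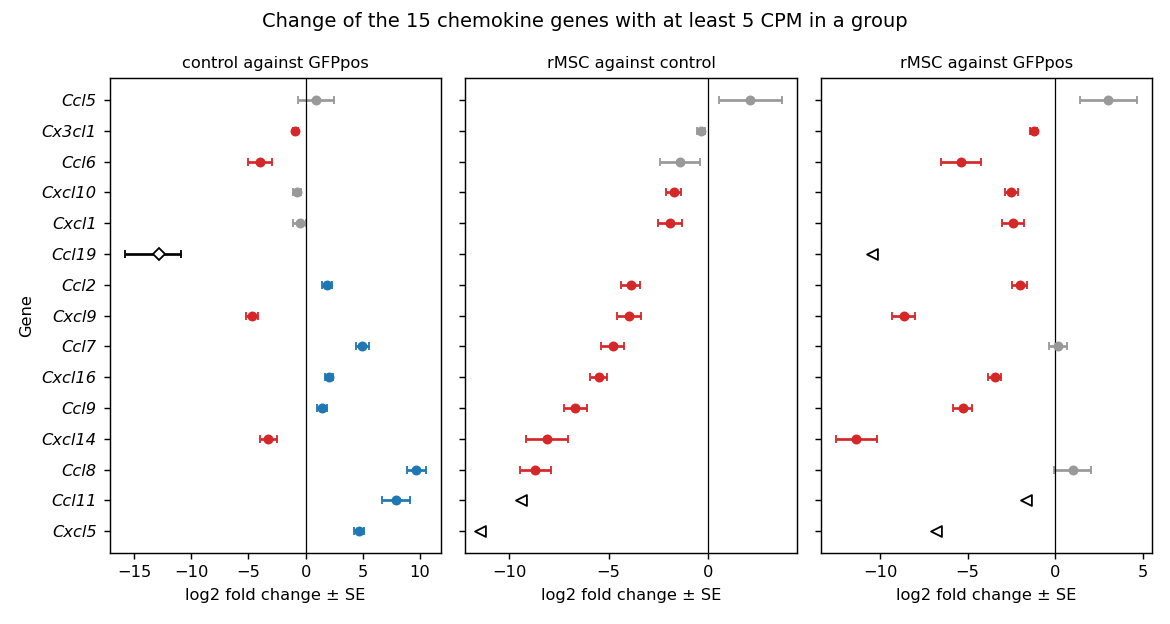
Log2 fold change of the 15 members with at least 5 CPM in some group, for 3 comparisons (filled points with the SE derived from the test statistic, red for lower, blue for higher and grey for not passed). Open triangles are bounds where the first group is at 0, the open diamond is a ratio with its 95% counting interval where control had 2 counts, and Ccl19 has no value in rMSC against control. In rMSC against control every point but Ccl5 lies left of 0, and Cx3cl1 is the nearest to 0 of these.

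Levels of different genes were compared per kb of exon. In GFPpos the order began with Cxcl14 (449 ± 286 CPM per kb), followed by Ccl19 (75.7 ± 30.1) and Cx3cl1 (70.7 ± 15.3), whose ranges overlapped each other. Next came Ccl9 (12.7 ± 10.4) and Cxcl9 (11.1 ± 5.86), which overlapped as well. In control the order was Ccl8 (176 ± 2.74), Ccl7 (154 ± 4.59), Cxcl5 (70.4 ± 1.79), Cxcl14 (47.3 ± 1.15), Cx3cl1 (38.1 ± 0.495), Ccl9 (33.5 ± 1.15), Ccl11 (29.5 ± 1.52), Ccl2 (27.4 ± 1.13) and Cxcl16 (13.1 ± 0.248), with no overlap between neighbours. In rMSC Cx3cl1 (30.1 ± 2.45) stood above Ccl7 (5.55 ± 1.59) and Ccl5 (5.43 ± 1.60), which overlapped each other. In GFPneg no member passed 1.37 CPM per kb on average, the level of Ccl6.

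Of the 24 receptor genes of the list in the files, 16 were tested, with 6 higher and 3 lower in GFPpos against GFPneg, 2 and 7 in control against GFPpos, 0 and 5 in rMSC against control, and 1 and 10 in rMSC against GFPpos. Over all genes tested the shares higher and lower were 40.5% and 36.5%, 32.5% and 35.9%, 24.5% and 25.5%, and 33.4% and 38.2% in these comparisons, and the counts of this list and of those that follow are to be read beside them. The leading one was Ackr4, a scavenger of Ccl19, Ccl21 and Ccl25 that does not signal to migration. It stood at 417, 308 and 504 CPM in GFPpos and under 1 CPM in every library of the other groups, and fell by 9.03 ± 0.39 on the log2 scale from GFPpos to control (adjusted p = 2.26e-08). Ackr3, the scavenger of Cxcl12, was at 3.56, 8.53 and 2.27 CPM in GFPpos, at 32.5, 25.8 and 26.9 in control and at 8.10, 9.10 and 9.60 in rMSC, so it was highest in control. It was higher in control than in GFPpos by 2.57 ± 0.61 (adjusted p = 0.00334) and fell by 1.67 ± 0.59 from control to rMSC (adjusted p = 0.0367). Ackr1, Cxcr4 and Ccrl2 were higher in GFPneg than in GFPpos, at 44.0 ± 5.90, 18.3 ± 0.988 and 16.9 ± 1.41 CPM against 14.5 ± 9.64, 6.16 ± 0.914 and 8.0 ± 2.88.

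Chemokines that the symbol rule does not find had their highest means in GFPpos. Pf4 and Ppbp, platelet chemokines, stood at 15.8, 1083 and 740 and at 34.9, 751 and 989 CPM in GFPpos replicates 1, 2 and 3, and both were under 1 CPM in all cultured libraries. In GFPneg replicates 1, 2 and 3, Pf4 stood at 0.591, 18.1 and 0.572 and Ppbp at 0.827, 72.8 and 0.323 CPM. The sum of 10 megakaryocyte and platelet markers, of which these are 2, was 200, 3354 and 2900 CPM in GFPpos. It was 49.6, 221 and 46.2 CPM in GFPneg. Among 11 tested proteases that cut chemokines, 0 were higher and 6 lower in rMSC against control (24.5% and 25.5% of all genes), 5 and 6 in control against GFPpos, 4 and 2 in GFPpos against GFPneg, and 3 and 7 in rMSC against GFPpos. Mmp2, which clips Ccl7 and Cxcl12, was at 382, 547 and 514 CPM in GFPpos, 2187, 2112 and 2158 in control and 332, 334 and 317 in rMSC. It fell by 2.72 ± 0.20 on the log2 scale from control to rMSC (adjusted p = 1.31e-06), with Mmp14 falling by 1.32 ± 0.12 (adjusted p = 4.91e-06). Mmp13 was at 956 to 2875 CPM in GFPpos and at most 3.10 in the cultures.

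The next list held cytokines that induce chemokines, with their receptors. Of its 22 tested genes, 3 were higher and 11 lower in rMSC against control (24.5% and 25.5% of all genes), 9 and 8 in control against GFPpos, 18 and 1 in GFPpos against GFPneg, and 4 and 15 in rMSC against GFPpos. The median log2 fold change of the list in rMSC against control was -0.74 by the fit, and -1.14 over the 19 with a fold. Il1r1, the receptor of interleukin 1, was at 270.3, 283 and 293 CPM in control and 14.3, 13.3 and 15.9 in rMSC, and fell by 4.28 ± 0.15 on the log2 scale (adjusted p = 1.45e-08). Tnfrsf1a, the main receptor of tumour necrosis factor, was at 499, 493 and 468 CPM in control and 133, 129 and 127 in rMSC, and fell by 1.91 ± 0.19 (adjusted p = 1.25e-05). Both were higher in control than in GFPpos, by 1.14 ± 0.14 (adjusted p = 2.56e-05) and 1.02 ± 0.18 (adjusted p = 0.000549). Ltbr and Ifnar2, receptors of lymphotoxin and of type I interferon, fell by 1.14 ± 0.14 (adjusted p = 7.36e-05) and 1.15 ± 0.11 (adjusted p = 8.08e-06) from control to rMSC. Whether these receptors bear on the chemokines was not tested.

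Of 14 tested NF-kB subunits and inhibitors, 3 were higher and 2 lower in rMSC against control (24.5% and 25.5% of all genes, median log2 fold change 0.16), and 4 were higher and 8 lower in control against GFPpos (median -0.54). In GFPpos against GFPneg 6 were higher and 8 lower, and in rMSC against GFPpos 1 was higher and 7 lower. Rela, the subunit p65, was at 109, 104 and 107 CPM in control and 132, 133 and 114.5 in rMSC, higher by 0.24 ± 0.07 (adjusted p = 0.0158). Bcl3, an unusual member of the inhibitor family that can act in the nucleus, was at 71.7, 71.9 and 66.1 CPM in control and 1.37, 1.44 and 1.95 in rMSC, and fell by 5.46 ± 0.41 (adjusted p = 1.85e-06). Nfkbia, itself an NF-kB target, was at 337 to 416 CPM in GFPneg and 147 to 224 in GFPpos, and the cultures held 24.0 to 25.6 (control) and 29.9 to 31.2 (rMSC).

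Several interferon factors were higher in rMSC than in control. Of 11 tested genes, 6 were higher and 2 lower in rMSC against control (24.5% and 25.5% of all genes, median log2 fold change 0.55), 6 and 4 in control against GFPpos, 9 and 0 in GFPpos against GFPneg, and 6 and 3 in rMSC against GFPpos. Irf3 and Irf7, 2 of the 6 that were higher, were themselves transduced and stood at 479, 485 and 481 and at 267, 249 and 235 CPM in rMSC, against 21.2, 20.0 and 19.9 and 80.2, 79.5 and 74.0 in control. Their counts cannot separate the transduced from the cell's own transcript. Stat2, which carries the interferon signal to the nucleus, rose from 109, 99.7 and 106 to 372, 366 and 380 CPM (higher by 1.83 ± 0.11, adjusted p = 3.75e-07), while Stat3 fell by 0.98 ± 0.13 (adjusted p = 0.000106). In the same libraries Cxcl9 and Cxcl10 fell, as given above, and Ccl5 was the tested member with higher values in all 3 rMSC libraries than in all 3 control libraries.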

How the data were processed

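The authors deposited raw read counts per gene symbol, 1 file per library, and these counts were used as they are. Per the labels' protocols, total RNA of sorted cells was amplified with SMART-Seq v4 and made into Nextera XT libraries, and per the submitters' processing notes reads were aligned with STAR 2.4.1c to mm10 and counted with featureCounts 1.4.6. The strand setting is not given in the sources used here. Rows whose symbols had been turned into dates (27 symbols, 0.183 to 0.369% of the counts) were left out of totals and tests.

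All genes kept by filterByExpr (15163) were fitted in 1 model of 12 libraries and 4 groups with edgeR 4.0.16 (R 4.3.3), TMM scaling and the quasi-likelihood test, with Benjamini-Hochberg adjustment over all of them and a threshold of 0.05. Library totals were 60396342 to 85186405 counts. The SE of a log2 fold change is its size divided by the square root of the F statistic of the test, and is approximate where a group is near 0. Folds against a group at 0 are bounds computed with 3 counts per library, and a group with 1 to 3 counts is given as a ratio with an exact 95% interval. That interval leaves out the spread between libraries and takes each count as an independent read. Since low counts were mostly even, it may be too narrow for counting error as well. Alternatives were DESeq2 1.42.0, RLE scaling, no filter, the 2 groups alone, a replicate block, each library left out, and the fresh groups without replicate 1. The analysis was tested on simulated data, drawn with the same spread per gene in every group. That test could not show the effect of spreads that differ between groups, as they did here.

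Members with a mean of at least 5 CPM in a group were named in every comparison, other members where they passed, and of the gene lists up to 4 genes that passed with the highest CPM. Members and lists were chosen with earlier results of these data known. The correlation of the deviations of same-numbered libraries was 0.16, 0.151 and 0.0174 between GFPneg and GFPpos and -0.0249 to 0.0288 between the other groups. Replicates 1 and 2 of the fresh groups thus shared some variation, and whether they came from the same sorts is not given. The main fit did not pair libraries. Positions and exon lengths come from GENCODE M21 (37 members matched), and promoter sequences from RefSeq on GRCm38.p6 (26 members matched). Some genes of the lists are not reported here.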

Additional observations from a re-analysis of the deposited data

How the results depend on the processing

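Of 96 member comparisons, 23 changed their side of the threshold under at least 1 alternative and 73 kept it under each alternative that tested them. With the 2 groups alone, 16 of the 96 fell below the filter and had no test, among them 5 called with all libraries: Cxcl2 in control and in rMSC against GFPpos, and Ccl4, Ccl28 and Cxcl15 in rMSC against GFPpos. No called fold change reversed. Members lower in GFPpos than in GFPneg numbered 1 and became 2 with no filter (Ccl22 and Ccl25), 0 with the 2 groups alone and 1 to 2 with single libraries left out. Members higher in rMSC than in control numbered 0 and became 1 (Ccl5) with the 2 groups alone and 1 (Ccl5) without replicate 1 of both fresh groups. Members higher in rMSC than in GFPpos numbered 2 and became 0 with the 2 groups alone, where neither was tested, and 2 to 4 with single libraries left out, 4 being without GFPpos replicate 2 (Ccl8, Ccl28, Cxcl15 and Cxcl17). With single libraries left out, 14 to 19 members were higher in GFPpos than in GFPneg, 9 to 10 higher and 8 to 10 lower in control than in GFPpos, 11 to 15 lower in rMSC than in control and 16 to 18 lower in rMSC than in GFPpos. The cause of the other changes was not tested.

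With a replicate block, members higher and lower numbered 14 and 1 in GFPpos against GFPneg, 9 and 8 in control against GFPpos, 0 and 13 in rMSC against control, and 2 and 17 in rMSC against GFPpos. Genes called under the replicate block numbered 11397, 10033, 7330 and 10552, against 11675, 10362, 7592 and 10859 without it. Among members, Ccl6 in GFPpos against GFPneg (adjusted p = 0.0905) and Ccl4 in control against GFPpos (adjusted p = 0.107) were lost. Depth limits members near 3 counts per library, and the larger spread of the fresh libraries limits small changes against them. The main fit shares the spread of a gene over all groups, so the fresh libraries also enter the p-values of rMSC against control. There the adjusted p by the same edgeR test was 0.291 for Ccl5, 0.278 for Ccl6, 0.0892 for Ccl17 and 0.188 for Cx3cl1. With the 2 groups alone it was 5.55e-05, 0.0151, 0.0322 and 3.99e-05.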
